A study of Mus musculus with 48 samples.

Results

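Hybrid Vκ joints are junctions in which the coding end of one RAG-cut segment is joined to the signal end of the other. They were counted here at 122 break sites of the mouse Igκ locus, where 898831 of the 8250887 junctions in the whole series (10.9%) were hybrid and 6280848 were same-kind joints, coding end to coding end (CE-CE) or signal end to signal end (SE-SE). The libraries were made by HTGTS-JoinT-seq, which primes from a fixed bait next to the Jκ1 break and reads into whatever DNA the bait was joined to (the prey). The baits lie on the coding end (JK1CE) and on the signal end (JK1SE) of Jκ1. The cells were vAbl lines, mouse pro-B cells transformed with the Abelson kinase: WT (clone B) and Ku70-/- (clone B1, Ku70 exons deleted with Cas9), so each genotype is 1 clone. Each was assayed cycling, or arrested with 3 µM STI-571, an Abl kinase inhibitor that turns on RAG cutting, for 96 h together with DMSO, 5 µM L67 or 25 µM L82-G17. L67 inhibits DNA ligases I and III and L82-G17 inhibits DNA ligase I. There were 3 libraries in each of the 16 groups, and since all libraries of a genotype come from 1 clone, the p-values measure the spread between libraries of that clone and not between clones.

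The break sites were chosen by measured values: chr6 positions 67500000 to 70660000 (mm9) with at least 300 junctions pooled over the 9 arrested WT libraries of the signal end bait and no higher position within 50 bp. The commonest prey strand at a site set its orientation, and at the least uniform site 99.5% of the junctions had that strand. A junction within 200 bp of a site was hybrid when its strand equalled the site's in a coding end library, or was opposite in a signal end library. The sites just inside the threshold had 300, 305 and 317 pooled junctions and the nearest position outside it had 270. Since the arrested WT signal end libraries set the sites, comparisons that use WT libraries of that bait are given below as values without a test.

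As background, RAG cuts between a coding segment and its recombination signal sequence, which opens with a heptamer and carries a nonamer after a spacer. Coding ends are sealed as hairpins that must be opened before joining, while signal ends are blunt. In normal V(D)J recombination coding ends are joined to each other and signal ends to each other, and a hybrid joint does not join the coding segments of V and Jκ1 to each other, so it cannot encode a light chain. Ku70, with Ku80, binds broken ends and starts classical non-homologous end joining (NHEJ). Without it joining runs through alternative end joining (A-EJ). Vκ segments lie in deletional (DEL) or inversional (INV) orientation. From the coding end bait a hybrid joint deletes the intervening DNA at an INV site and inverts it at a DEL site. From the signal end bait a hybrid joint at an INV site lies on an excised circle and at a DEL site it is an inversion. SE-SE joints of this bait lie on an excised circle at a DEL site and are inversions at an INV site.

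The sequences below are shown because the heptamer shared by both partners sets what an untrimmed hybrid joint looks like. They are from the mm9 genome, read along the V or J segment, with the heptamer and the window where the nonamer is expected (12 bases on for V, 23 bases before for Jκ1) in capitals. Igkv1-135 (chr6:67560473-67560542, plus strand) and Igkv11-125 (chr6:67864017-67864086, plus strand) are the DEL sites, and Igkv8-16 (chr6:70336626-70336695, minus strand) and Igkv12-44 (chr6:69764585-69764654, minus strand) the INV sites, that gave the largest parts of the hybrid joints of the coding end bait in arrested Ku70-/- cells. Each break falls at the 3′ end of the annotated V gene, just before the capitals. Jκ1 lies at chr6:70672556-70672593 on the plus strand and is shown over chr6:70672516-70672585, with the break just after its heptamer.
Igkv1-135: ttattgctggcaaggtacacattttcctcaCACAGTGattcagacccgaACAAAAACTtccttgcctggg
Igkv11-125: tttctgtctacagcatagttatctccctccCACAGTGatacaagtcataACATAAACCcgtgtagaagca
Igkv8-16: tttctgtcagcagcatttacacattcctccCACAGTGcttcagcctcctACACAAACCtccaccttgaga
Igkv12-44: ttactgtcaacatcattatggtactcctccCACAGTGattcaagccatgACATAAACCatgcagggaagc
Jk1: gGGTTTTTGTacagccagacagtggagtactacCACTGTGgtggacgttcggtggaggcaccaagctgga
The consensus heptamer CACAGTG stood at 101 of the 122 sites, against 615 of 6319990 windows of 7 bases on both strands of the region (0.00973%). At 115 sites the signal side opened with CAC, allowing a shift of 1 base, and 7 sites had no CAC. At those 7 no heptamer defines a coding and a signal side, so their joints were called hybrid by strand alone. Of the sites, 54 were DEL and 68 INV, and 88 lay at the end of an annotated gene (86 of the immunoglobulin V type). They lay 18.4 to 3166 kb from the Jκ1 break.

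Libraries held 8294 to 385847 junctions each. In Ku70-/- cells treated with STI-571 and DMSO, replicate 1 stood apart in both baits. Its 93230 site junctions with the coding end bait came from 882 distinct junctions, against 12903 and 12076 in replicates 2 and 3, and its 141965 with the signal end bait came from 955, against 13354 and 10708. Values without it are given beside the results whose call or direction it set and beside the means it moved most. The Wilson 95% intervals of the hybrid share of a library were at most 0.631 (coding end bait) and 0.645 percentage points (signal end bait) wide in arrested Ku70-/- libraries, and at most 0.0605 and 0.131 in arrested WT libraries. These intervals cover counting error only, because the authors kept repeated reads. The closest neighbouring sites, Igkv6-32 and the site at 70024072, are 55 bp apart. Over all sites, 107359 junctions lay within 200 bp of a pair of sites and were given to the nearer.

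In WT cells hybrid joints were rare with the coding end bait. They made up 0.245, 0.199 and 0.217% of the site junctions with DMSO, 0.287, 0.319 and 0.255% with L67, and 0.350, 0.413 and 0.364% with L82-G17. In Ku70-/- cells the share was 40.7, 32.8 and 33.2% with DMSO, 35.1, 34.2 and 35.9% with L67, and 23.4, 23.2 and 24.4% with L82-G17. The lowest Ku70-/- library thus lay above the highest WT library in each treatment. Over the 9 arrested libraries of each genotype, the Ku70-/- mean was 31.4% ± 6.25 and the WT mean 0.294% ± 0.0722 (SD, n = 9), a difference of 31.1 percentage points (exact permutation test with labels exchanged within treatment, two-sided p = 0.00025, the smallest the design allows). Without Ku70-/- DMSO replicate 1 the Ku70-/- mean was 30.3% ± 5.56 (SD, n = 8).

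In arrested WT cells the share was higher at the signal end bait. It was 1.61, 1.60 and 1.92% with DMSO, 1.73, 1.37 and 1.94% with L67, and 1.07, 1.37 and 1.09% with L82-G17. In Ku70-/- cells it was 47.7, 47.4 and 47.9% with DMSO, 52.4, 52.3 and 50.1% with L67, and 36.6, 36.6 and 38.2% with L82-G17. Under DMSO these cells thus had nearly as many V coding ends as V signal ends among the preys of the Jκ1 signal end. The genotypes did not overlap, and no test was made for this bait.

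**Figure D1:**
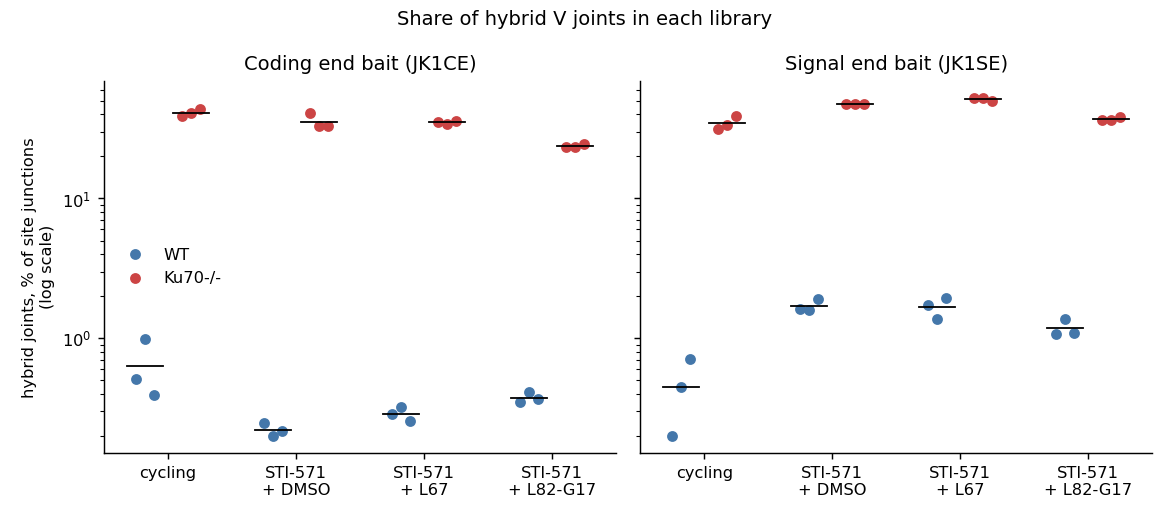
Hybrid joints as a percentage of the junctions at the 122 sites (log axis), 1 point per library and a bar at the mean of 3 libraries, for the coding end bait (left) and the signal end bait (right). All Ku70-/- libraries lie between 23.2 and 52.4% and all WT libraries below 2%.

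Hybrid junctions were also counted against the 500000 read pairs sampled from each library. With the coding end bait and DMSO, 0.137 to 0.177% of the read pairs in WT libraries and 7.17 to 7.59% in Ku70-/- libraries gave a hybrid joint, while CE-CE joints were 68.8 to 72.1% of read pairs in WT and 11.1 to 15.1% in Ku70-/-. For the signal end bait, hybrid joints were 1.04 to 1.25% of read pairs in WT and 13.5 to 14.2% in Ku70-/-. Hybrid joints were thus more numerous in Ku70-/- cells per sampled read pair as well, although fewer joints were recovered there in all. The WT hybrid joints were few as distinct events: arrested WT libraries held 98 to 189 distinct hybrid junctions with the coding end bait and 114 to 420 with the signal end bait, against 2070 to 7430 in arrested Ku70-/- libraries other than DMSO replicate 1. Counting each distinct junction once raised the WT share to 1.12 to 1.71% (coding end) and 10.8 to 17.5% (signal end), and left the difference between genotypes of the coding end bait at 32.3 percentage points. For the arrested WT signal end libraries this count is saturated: 122154 to 339784 site junctions per library gave 1058 to 2397 distinct ones. Of their SE-SE joints 97.1% ± 0.369 lay at exactly 0 bases lost (SD, n = 9), but the commonest positions of these same libraries set the sites. The shares of these libraries with each distinct junction counted once are therefore not shares of joining events. In the WT coding end libraries repeats were uneven too. DMSO replicate 1 of that bait held 361463 site junctions in 11883 distinct ones, but 887 hybrid joints in 149. Its share counted once thus cannot be read as a share of joining events either.

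Cycling cells express little RAG and gave few site junctions, 1987 to 6133 per library in Ku70-/- and 19291 to 29368 in WT. The hybrid share of cycling Ku70-/- libraries was 38.7, 40.9 and 43.4% with the coding end bait. At the signal end bait it was 31.6, 33.7 and 39.1%, below each of the 3 DMSO-treated libraries. The mean difference of DMSO-treated from cycling Ku70-/- cells was -5.47 percentage points for the coding end bait (exact permutation test, two-sided p = 0.2, and -8.05 without DMSO replicate 1, exact p = 0.1) and 12.8 for the signal end bait (exact p = 0.1, the smallest that 3 against 3 libraries allow, 0.15 after Benjamini-Hochberg adjustment over the 3 comparisons tested). In WT cells the cycling shares were 0.512, 0.981 and 0.392% (coding end) and 0.198, 0.446 and 0.705% (signal end), resting on 12 to 24 and 5 to 12 distinct hybrid junctions per library.

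L82-G17 went with a lower hybrid share in Ku70-/- cells for both baits. The differences of the mean share were -11.9 percentage points with the coding end bait and -10.5 with the signal end bait, and no L82-G17 library overlapped a DMSO library (exact permutation test, two-sided p = 0.1 for each, the smallest possible, 0.12 adjusted over 6 comparisons). Without Ku70-/- DMSO replicate 1 the coding end difference was -9.29. Both kinds of joint were counted. With the coding end bait the hybrid joints were 23982 to 25594 per library under L82-G17 and 35857 to 37944 under DMSO, whereas CE-CE joints were 79237 to 79556 and 55286 to 75425. From the signal end bait the hybrid joints were 31316 to 35690 and 67589 to 71004, and SE-SE joints were 54309 to 57821 and 74246 to 77346.

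In WT cells L82-G17 went with the opposite direction for the coding end bait, 0.376% ± 0.0331 against 0.221% ± 0.0233 with DMSO (SD, n = 3, difference 0.155 percentage points, exact permutation p = 0.1). There the CE-CE joints were 172113 to 197265 under L82-G17 against 343785 to 360576 with DMSO, and hybrid joints were 627 to 721 against 686 to 887. On the log2 scale of the ratio of hybrid to CE-CE joints, the L82-G17 effect was lower in Ku70-/- than in WT cells by 1.60 (log2 difference of differences -1.60, exact permutation within genotype, two-sided p = 0.005, the smallest the design allows, 0.01 adjusted over 2). It was -1.44 without Ku70-/- DMSO replicate 1 (exact permutation p = 0.005). The WT values rest on 124 to 149 distinct hybrid junctions per library with DMSO and 98 to 162 with L82-G17. With each distinct junction counted once, the WT share was 1.12 to 1.25% with DMSO and 1.29 to 1.71% with L82-G17. The Ku70-/- share was then 36.6 to 37.4% and 26.0 to 26.2%. At the signal end bait the L82-G17 means were lower in both genotypes and the effects differed by -0.08 (log2, without a test). Leaving out 1 library gave -0.167 to 0.0373, so the direction of this difference was not settled.

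L67 gave smaller differences. The Ku70-/- share at the signal end bait was 3.98 percentage points above DMSO with no overlap (exact permutation p = 0.1, 0.12 adjusted over 6). For the coding end bait the difference was -0.474, and 2.10 without Ku70-/- DMSO replicate 1, so 1 library set its direction. In WT cells the differences were 0.0662 (coding end, exact permutation p = 0.1) and -0.0288 (signal end, without a test). The latter was -0.159 to 0.125 leaving out 1 library, so its direction was not settled. The doses of the inhibitors differ, and they were compared only with DMSO.

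In arrested Ku70-/- cells the hybrid share was higher at INV than at DEL sites in all 9 libraries of each bait. With the coding end bait it was 36.1% ± 7.05 at INV and 24.1% ± 5.42 at DEL sites (SD, n = 9), a DEL minus INV difference of -12.0 percentage points (exact sign-flip permutation test over libraries, two-sided p = 0.00391, the smallest possible). For the signal end bait it was 56.3% ± 7.44 and 24.2% ± 5.98, a difference of -32.1 (exact sign-flip permutation p = 0.00391). The lowest INV value of the signal end bait, 46.1%, lay above the highest DEL value, 31.3%. INV sites supplied 66.5 to 73.2% of the hybrid joints of the coding end bait and 79.7 to 90.4% of those of the signal end bait (at most 82.1% without DMSO replicate 1), while they supplied 54.4 to 61.0% of the CE-CE and 48.5 to 56.2% of the SE-SE joints.

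In cycling Ku70-/- cells the order at the signal end bait was the reverse. How many of the junctions in cycling cells had formed before the culture was not tested. At this bait SE-SE joints at DEL sites and hybrid joints at INV sites lie on excised circles. Whether such joints are recovered equally from cycling and arrested cells was not tested. The hybrid share was 66.5, 60.3 and 62.1% at DEL sites and 23.3, 25.4 and 31.2% at INV sites. The coding end bait kept the order of the arrested cells, with 23.4, 24.8 and 29.2% at DEL and 47.4, 52.8 and 53.3% at INV sites. The SE-SE joints of the cycling Ku70-/- libraries lay at INV sites in 84.0 to 90.6% of cases, against the 48.5 to 56.2% after arrest. WT cycling libraries showed the same composition, with 85.6 to 87.0% of the SE-SE joints at INV sites. In arrested WT cells the DEL minus INV difference with DMSO was -0.378 percentage points (signal end) and -0.0259 (coding end), of shares that were low themselves. The WT coding end shares were 0.205% at DEL and 0.231% at INV sites with DMSO. They were 0.287 and 0.287% with L67, and 0.324 and 0.409% with L82-G17. At the signal end bait the WT shares were 1.52 and 1.89% with DMSO, 1.55 and 1.79% with L67, and 1.08 and 1.26% with L82-G17.

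**Figure D2:**
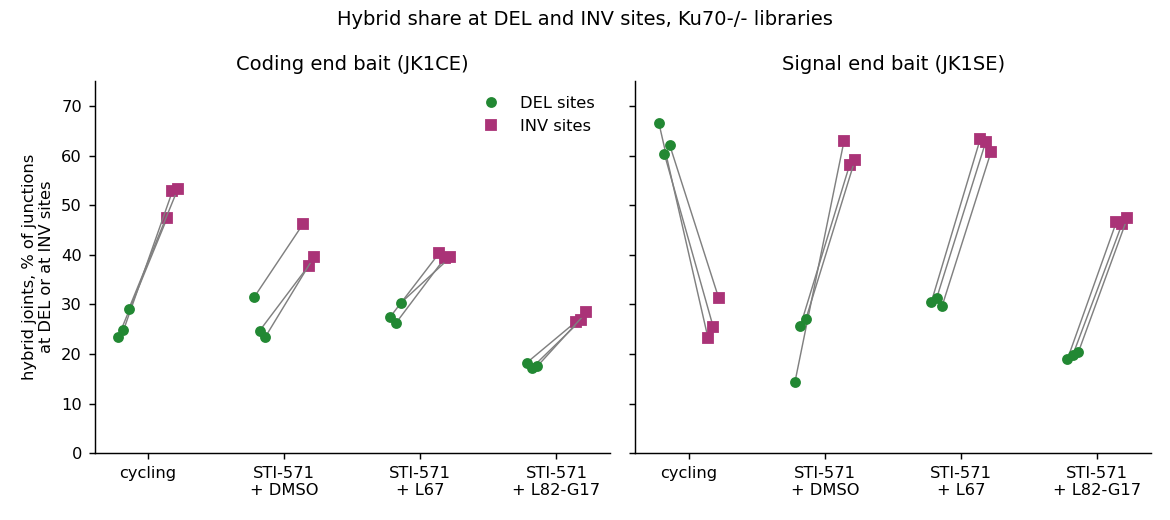
Hybrid joints as a percentage of all junctions at DEL sites (circles) and at INV sites (squares) in each Ku70-/- library, with a line joining the values of a library, for the coding end bait (left) and the signal end bait (right). INV sites are higher in every library except the 3 cycling libraries of the signal end bait, where DEL sites are at 60.3 to 66.5% and INV sites at 23.3 to 31.2%.

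Hybrid joints spread over most of the sites. Arrested Ku70-/- libraries other than DMSO replicate 1 had hybrid joints at 100 to 114 of the 122 sites, and the site with most of them held 4.25 to 6.81% of a library's hybrid joints. In DMSO replicate 1 it held 9.94% (coding end) and 11.6% (signal end). Among the 94 sites with at least 100 junctions on average with the coding end bait, the mean hybrid share ran from 2.79 to 72.6%, with a median of 32.2% and the middle of the sites between 25.1 and 37.9%. For the 96 such sites of the signal end bait it ran from 7.82 to 99.0% with a median of 49.0%. The values of 2.79 and 99.0% are both from the site at 70024072, which has no CAC. Among sites with the heptamer CACAGTG the ranges were 7.48 to 72.6% (80 sites, coding end bait) and 7.82 to 86.3% (81 sites, signal end bait). By orientation the medians were 27.2% (33 DEL) and 34.7% (61 INV) with the coding end bait, and 27.4% (34 DEL) and 55.6% (62 INV) with the signal end bait. Without DMSO replicate 1 the DEL median of the coding end bait was 23.0%.

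Igkv1-135 and Igkv8-16 supplied the largest parts of the hybrid joints from the coding end bait, although without DMSO replicate 1 Igkv12-44 (4.79%) lay above Igkv8-16 (4.52%). At Igkv1-135, a distal DEL gene, hybrid joints were 27.1, 29.9 and 33.3% of the junctions with DMSO, 29.1, 34.4 and 40.5% with L67, and 21.2, 24.3 and 19.5% with L82-G17. In the 9 arrested WT libraries the same share was between 0.0510 and 0.459%. Igkv1-135 gave 4.90% ± 1.20 of all hybrid joints in arrested Ku70-/- cells (SD, n = 9) and 5.42% of the CE-CE joints. Igkv8-16, an INV gene, gave 4.62% ± 0.747 of the hybrid joints and 0.760% of the CE-CE joints, so 72.5% ± 12.2 of its junctions were hybrid. The DMSO values at Igkv8-16 were 100, 70.3 and 82.5%, the first from DMSO replicate 1 with 2059 hybrid and 0 CE-CE junctions, and without that library the mean share was 69.1%.

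Igkv8-16 also stood out in the WT libraries, where it gave 4.10% ± 1.88 of the hybrid and 0.433% of the CE-CE joints of the coding end bait (SD, n = 9). Its signal end was a frequent prey of the signal end bait as well, with 3.36% of the SE-SE joints in arrested Ku70-/- cells, whereas its coding end gave 1.11% of the hybrid joints of that bait. Its signal end was therefore recovered more than its coding end from both baits. The site at 70190420, INV and without an annotated gene, had the highest share of the coding end bait, 72.6% ± 13.3 (SD, n = 9), and with the signal end bait 26.5% ± 7.76. Igkv8-16 was next, and the site at 68072662 (DEL, no CAC) had 61.0% ± 21.9 of 115 junctions on average. Without DMSO replicate 1 the sites at 70190420 and 68072662 had 69.1 and 56.4%.

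Other sites with large parts of the coding end hybrid joints were the DEL genes Igkv11-125 (2.32%), Igkv16-104 (2.29%) and Igkv1-117 (1.96%) and the INV genes Igkv12-44 (4.26%), Igkv6-32 (4.05%) and Igkv4-50 (3.25%). Without DMSO replicate 1 the parts of Igkv11-125 and Igkv1-117 were 1.86 and 1.67%. At Igkv12-44 the share was 2.74% in DMSO replicate 1, 44.5 and 48.3% in the other DMSO libraries, 47.6, 48.6 and 44.2% with L67 and 31.0, 30.4 and 34.8% with L82-G17. Apart from the 1 library of few distinct junctions, the L82-G17 values lay below all others. The lowest shares of the coding end bait were at the site at 70024072 (2.79% ± 3.11), Igkv4-70 (7.48% ± 4.53) and Igkv3-1 (7.82% ± 4.55, SD, n = 9), the DEL gene nearest to Jκ1. The site at 70024072 lies on the coding side of the Igkv6-32 break, and its 4047 CE-CE and 5918 signal end hybrid junctions were coding preys, so these values cannot be told apart from joints of a trimmed Igkv6-32 coding end.

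Among the signal end hybrid joints, the largest parts came from the INV genes Igkv12-44 (5.25% ± 1.88), Igkv4-80 (4.49% ± 2.73), Igkv12-46 (4.12% ± 1.65) and Igkv4-50 (3.92% ± 0.410, SD, n = 9). Without DMSO replicate 1 they were 4.73, 3.61, 3.62 and 3.98%, so the order after Igkv12-44 rests on that library. The leading DEL genes gave less, Igkv1-135 with 2.18%, Igkv11-125 with 1.51%, Igkv6-17 with 1.25% and Igkv1-117 with 1.18%. Shares were highest at the site at 70024072 (99.0% ± 1.50), Igkv8-28 (86.3% ± 11.9) and Igkv4-69 (85.6% ± 7.21). They were lowest at the site at 68425096 (7.82% ± 10.3), Igkv16-104 (12.5% ± 2.74) and Igkv1-132 (14.3% ± 4.97, SD, n = 9), all DEL.

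The part of each site in the hybrid joints was set beside its part in the same-kind joints with the same prey end, which come from the other bait. Over the 61 INV sites with at least 100 junctions in both baits, the part of each site in the coding end hybrid joints correlated with its part in the SE-SE joints (Spearman rho = 0.94), and its part in the signal end hybrid joints with its part in the CE-CE joints (rho = 0.96). Over the 33 DEL sites the values were 0.91 and 0.92. Over all 94 sites they were lower, 0.87 and 0.78, and the hybrid joints of the baits had rho = 0.76 with each other. The hybrid shares of the 2 baits were not alike from site to site, with rho = 0.03 over all 94 sites, -0.05 over DEL sites and -0.49 over INV sites. Signal preys are the numerator of the share from the coding end bait and belong to the denominator from the signal end bait. The share had rho = -0.04 with the distance from Jκ1 for the coding end bait, and -0.47 for the signal end bait. Within orientations it was 0.32 (DEL) and -0.05 (INV) for the coding end bait and -0.09 (DEL) and -0.27 (INV) for the signal end bait. Between genotypes, the parts of 91 sites in the coding end hybrid joints had rho = 0.77 and their parts in the CE-CE joints rho = 0.91. These are descriptions over sites that share libraries, and no test was made.

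**Figure D3:**
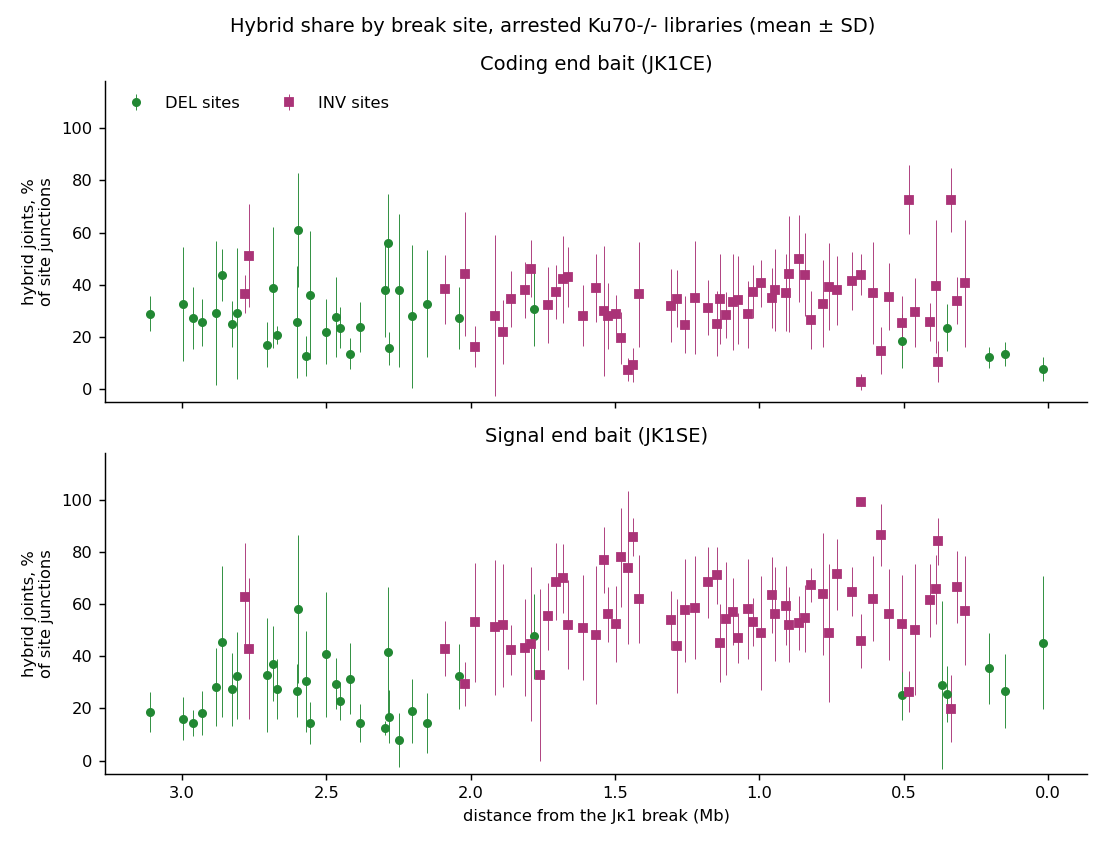
Hybrid joints as a percentage of the junctions at each site (mean ± SD of 9 arrested Ku70-/- libraries) against its distance from the Jκ1 break, shown where the site averaged 100 or more junctions, with the coding end bait (top) and the signal end bait (bottom). For the coding end bait the middle of the sites lies between 25.1 and 37.9%, and with the signal end bait INV sites (squares, median 55.6%) lie above DEL sites (circles, median 27.4%).

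The log2 ratio of hybrid to CE-CE junctions was tested site by site with limma for DMSO-treated cells and the coding end bait. Of 113 sites with at least 50 junctions on average, 106 (93.8%) had a higher ratio in Ku70-/- than in WT cells and 0 (0%) a lower one (limma, Benjamini-Hochberg adjusted p under 0.05). The median log2 difference was 8.20. The highest were 14.28 ± 2.31 (SE) at the site at 68425096 (limma adjusted p = 0.000583), 13.17 ± 3.51 at Igkv5-43 (adjusted p = 0.00682) and 12.31 ± 1.67 at Igkv4-74 (adjusted p = 0.000391). The largest values depend on the pseudocount of 0.5, because WT libraries had few or no hybrid joints there and, at the first pair, Ku70-/- DMSO replicate 1 had no CE-CE joints. The 7 sites not called were the genes Igkv1-132, Igkv2-116, Igkv5-39, Igkv5-45 and Igkv6-23, with log2 differences of 4.25 to 5.24, and the sites at 68387596 (-0.88) and 70024072 (-0.95). The last pair have no heptamer opening with CAC. Ku70-/- DMSO replicate 1 had no junction of either kind at 23 of the 113 sites, where the pseudocount alone set its ratio. At 5 sites another library had none. Without Ku70-/- DMSO replicate 1, 109 sites passed, and leaving out each of the other libraries gave 93 to 100. The filter of 50 junctions was applied anew in each of these fits, so the number of sites tested can differ from 113.

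Site by site, the inhibitors gave almost no calls when all reads were counted. DMSO replicate 1 entered these fits with no junction at 14 of 100 sites (coding end bait) and 14 of 103 (signal end bait). For L82-G17 with the coding end bait limma called 0 of 100 sites (0%) after adjustment, with 14 lower (14%) and 0 higher (0%) at an unadjusted p under 0.05, and 63 of the 100 sites had a lower ratio, with a median log2 difference of -0.75. With the signal end bait it called 2 of 103 lower (1.94%), with 15 lower (14.6%) and 1 higher (0.971%) unadjusted, and a median of -0.74. These were Igkv8-18 (log2 difference -6.23 ± 0.99 SE, limma adjusted p = 0.0236) and the site at 67518928 (-8.62 ± 1.68, limma adjusted p = 0.0465). At Igkv8-18 the hybrid junctions were 1, 26 and 168 with DMSO and 0, 0 and 1 with L82-G17, against 52, 62 and 54 SE-SE junctions. At the site at 67518928 they were 0, 22 and 15 with DMSO and 0 in each L82-G17 library, against 64, 211 and 11 SE-SE junctions there, so its log2 difference depends on the pseudocount. DMSO replicate 1 had no junction of either kind there, and the pseudocount alone set its ratio. Both calls rest on few junctions and were lost, leaving 0, without DMSO replicate 3, any 1 of the L67 libraries (which share the estimate of the spread) or L82-G17 replicate 2. Without DMSO replicate 2 or L82-G17 replicate 3, 1 call was left, and without L82-G17 replicate 1 there were 3. For L67 limma called 0 sites (0%) in either bait, with 2 higher (2%) and 1 lower (1%) of 100 unadjusted for the coding end and 1 in each direction (0.971%) of 103 for the signal end. Without DMSO replicate 1 it called 1 site for the coding end bait. With each distinct junction counted once, L82-G17 gave calls at 17 of 69 sites (coding end) and 6 of 67 (signal end), not split here by direction. The number of sites called for L82-G17 thus depends on how repeated reads are counted.

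V ends in hybrid joints were trimmed far more in Ku70-/- than in WT cells. Trimming was measured as the bases lost between the site and the junction, over joints within 100 bp of the site. With the coding end bait, whose hybrid preys are signal ends, 97.4% ± 1.65 of the hybrid joints of arrested WT libraries lay within 10 bp of the site and 44.1% ± 3.74 of those of Ku70-/- libraries (SD, n = 9), a difference of -53.3 percentage points (exact permutation within treatment, p = 0.00025). With the signal end bait, whose hybrid preys are coding ends, the values were 93.9% ± 2.08 and 40.4% ± 5.11, a difference of -53.6 without a test. The median loss was 0 to 1 bases in WT and 12 to 16 in Ku70-/- libraries for signal preys, and 1 to 3 and 10 to 18 bases for coding preys. The site positions came from WT signal end libraries, in which hybrid joints were 1.07 to 1.94% of the site junctions. Same-kind joints differed in the same direction, so the difference was not shown to be particular to hybrid joints. Of CE-CE joints, 97.5 to 98.8% lay within 10 bp in arrested WT and 37.6 to 53.4% in arrested Ku70-/- libraries. For SE-SE joints the values were 99.6 to 99.9%, from the WT libraries that set the sites, and 46.4 to 60.5%.

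Signal ends in Ku70-/- cells were trimmed further in the hybrid joints of the coding end bait than in the SE-SE joints of the signal end bait. In this comparison, and in that of coding preys below, the kind of joint and the bait change together and cannot be told apart. Of the signal preys, 44.1% ± 3.74 lay within 10 bp in hybrid joints (coding end bait) and 54.0% ± 5.31 in SE-SE joints (signal end bait), a difference of -9.84 percentage points (SD, n = 9, exact permutation within treatment, p = 0.00025, adjusted p = 0.0005 over the pair of comparisons). Exactly 0 bases were lost from the signal end in 4.64% ± 1.54 of the hybrid and 9.91% ± 3.13 of the SE-SE joints, and without DMSO replicate 1 in 4.16 and 8.91%. Counting also the joints whose prey alignment runs past the break, the shares were 6.96% ± 1.44 and 13.8% ± 2.59. In the hybrid joints of arrested WT libraries the shares were 27.7% ± 4.34 with exactly 0 bases lost and 54.7% ± 5.83 with the alignments past the break (SD, n = 9). Bases that both alignments cover are counted here for the prey, so the joints in these shares need not have kept the whole signal end. Of the coding preys, 40.4% ± 5.11 in hybrid and 42.6% ± 4.80 in CE-CE joints lay within 10 bp, a difference of -2.22 (exact permutation p = 0.108). That difference was -3.08 without Ku70-/- DMSO replicate 1 of the signal end bait (exact permutation p = 0.004), -1.26 without that of the coding end bait (exact permutation p = 0.342) and -2.12 without both (exact permutation p = 0.00167). It was 3.14 when each junction was counted once (exact permutation p = 0.0568), so its direction depends on how repeated reads are counted. Within 20 bp the share of coding preys was lower in hybrid than in CE-CE joints, with no overlap in any treatment. It was 65.4 to 69.3% against 70.4 to 77.6% with DMSO and 60.9 to 64.4% against 68.0 to 68.6% with L67. With L82-G17 it was 54.8 to 58.3% against 63.3 to 65.2%.

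**Figure D4:**
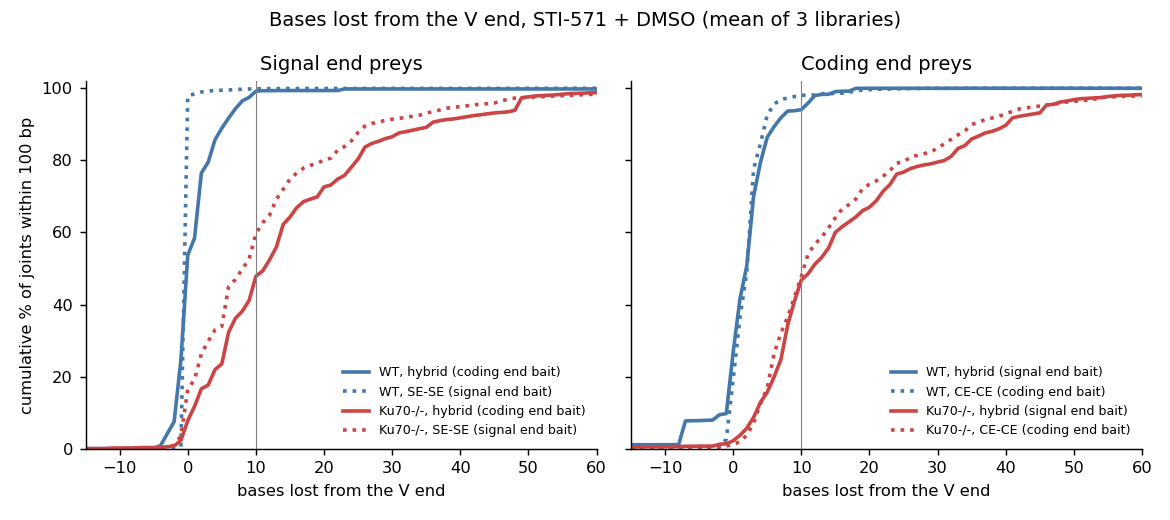
Cumulative percentage of joints by the bases lost from the V end (mean of 3 DMSO-treated libraries), for signal end preys (left) and coding end preys (right), as hybrid joints (solid) and same-kind joints (dotted). The grey line marks 10 bases, where the Ku70-/- hybrid curves stand at 47.9% (signal preys) and 46.8% (coding preys), and the WT hybrid curves at 99.2% and 94.1%. The WT curves of the signal end bait come from libraries that set the sites.

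In Ku70-/- cells the share of hybrid joints within 10 bp was lower in every inhibitor library than in the DMSO libraries of its bait. From the coding end bait the share was 48.3, 48.1 and 46.6% with DMSO, 45.6, 44.4 and 45.3% with L67 and 39.9, 41.3 and 37.6% with L82-G17. With the signal end bait it was 51.4, 43.5 and 43.8% with DMSO, 38.0, 39.1 and 39.4% with L67 and 35.7, 37.1 and 35.3% with L82-G17. The differences were -2.58 and -7.39 percentage points for L67 and -8.09 and -10.2 for L82-G17 (coding and signal end bait, exact permutation p = 0.1 each, the smallest possible, 0.16 adjusted over 8 comparisons). Without DMSO replicate 1 the signal end differences were -4.81 for L67 and -7.60 for L82-G17. In SE-SE joints the share was 58.6 to 60.5% with DMSO, 54.0 to 54.9% with L67 and 46.4 to 50.2% with L82-G17, so the difference was not shown to be particular to hybrid joints.

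The bait end of hybrid joints was trimmed as well. The Jκ1 coding end had lost a median of 13 to 16 bases in the hybrid joints and 11 to 15 in the CE-CE joints of arrested Ku70-/- libraries, against 0 to 1 in WT hybrid joints. The Jκ1 signal end had lost 12 to 15 bases in the Ku70-/- hybrid joints, 10 to 13 in SE-SE joints and 1 to 2 in WT hybrid joints. The bait alignment reached the break or ran past it in 8.87% ± 1.57 of the Ku70-/- hybrid joints at the Jκ1 signal end (SD, n = 9). At the Jκ1 coding end it did so in 1.32% ± 0.508. Bases that both alignments cover are counted here for the bait.

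The reads below show recurrent hybrid joints, to let the trimming be seen, written from the bait into the prey. Capitals mark bases that both the bait and the prey alignment cover, or, in the joint that has no overlap, the prey. For WT cells they are the 3 joints of the coding end bait, and for Ku70-/- cells the 3 of either bait, that were found in most libraries and then had most reads. The WT joints are to Igkv12-44, Igkv12-46 and Igkv8-16, read 89, 78 and 61 times, each in 7 of 9 arrested libraries. The Ku70-/- joints were read in all 9 arrested libraries of a bait, from the signal end bait to Igkv12-46 and Igkv12-44 (3269 and 580 times) and from the coding end bait to Igkv8-16 (905 times). In DMSO replicate 1 a hybrid junction was read up to 4803 (signal end) and 3670 times (coding end). In the other arrested Ku70-/- libraries it was at most 314 and 121 times, so replicate 1 gave a part of the 3269 and of the 905 reads.
WT, Igkv12-44: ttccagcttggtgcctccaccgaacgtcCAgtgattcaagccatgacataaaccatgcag
WT, Igkv12-46: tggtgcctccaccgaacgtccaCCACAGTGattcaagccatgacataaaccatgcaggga
WT, Igkv8-16: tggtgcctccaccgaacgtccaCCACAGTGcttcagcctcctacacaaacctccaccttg
Ku70-/-, Igkv8-16: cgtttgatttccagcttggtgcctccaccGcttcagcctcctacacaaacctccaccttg
Ku70-/-, Igkv12-46: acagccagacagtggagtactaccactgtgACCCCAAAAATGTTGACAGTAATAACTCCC
Ku70-/-, Igkv12-44: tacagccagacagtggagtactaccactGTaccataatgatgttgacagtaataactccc
The WT joint to Igkv12-44 had lost 2 bases of the V and 1 of the Jκ1 end, with an overlap of 2 bases. In the other WT joints the whole heptamer CACAGTG is covered by both alignments, because the genome beyond the Jκ1 coding end reads CACAGTG on that strand too. An intact Jκ1 coding end joined to an intact V signal end with this heptamer therefore always shows an overlap of at least 7 bases, which the alignment cannot place on either partner. In the Ku70-/- joint to Igkv8-16, the V end had lost 6 bases and the Jκ1 end 9, with an overlap of 1 base. The joint to Igkv12-46 had lost 8 bases of the V end and 0 of the Jκ1 end and had no overlap, and the joint to Igkv12-44 had lost 6 and 1 with an overlap of 2 bases.

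Most Ku70-/- hybrid joints had no overlap or 1 base of it. Direct joints, with neither overlap nor insertion, were 50.3% ± 2.09 of the hybrid joints of the coding end bait and 54.9% ± 5.27 of those of the signal end bait (53.4% without DMSO replicate 1) in arrested Ku70-/- cells, against 18.2% ± 3.63 and 26.7% ± 3.49 in WT (SD, n = 9). The differences were 32.1 percentage points for the coding end bait (exact permutation within treatment, p = 0.00025) and 28.3 for the signal end bait, without a test. Same-kind joints differed the other way. In arrested WT libraries 69.7 to 72.2% of CE-CE and 94.5 to 96.4% of SE-SE joints were direct. In arrested Ku70-/- libraries 47.7 to 53.8% and 51.9 to 59.1% were. Insertions were found in 1.63% ± 0.373 and 2.19% ± 0.702 of the Ku70-/- and in 15.2% ± 4.57 and 15.7% ± 3.64 of the WT hybrid joints.

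Microhomology of more than 1 bp was seen in 19.5% ± 4.79 of the hybrid joints of the coding end bait in Ku70-/- cells and in 56.0% ± 4.01 in WT cells (SD, n = 9), a difference of -36.4 percentage points (exact permutation p = 0.00025). Overlaps of 7 or more bases that ran across the break made up 17.6% ± 4.29 of those WT joints and 0.244% ± 0.126 of the Ku70-/- joints. With them left out the difference was -27.1 (exact permutation p = 0.00025). With the signal end bait the shares were 20.4% ± 1.41 in Ku70-/- and 22.1% ± 5.16 in WT, a difference of -1.73, without a test. It was 5.93 without such overlaps, which were 9.09% ± 4.06 of the WT joints, and -8.45 with each distinct junction counted once, so its direction depends on these choices. Ku70-/- DMSO replicate 1 had 7.45% with the coding end bait, below the 19.0 to 24.4% of the other 8 libraries. Same-kind joints had the opposite order of genotypes to the coding end hybrid joints. Microhomology of more than 1 bp was in 14.9 to 21.6% of CE-CE joints in arrested Ku70-/- libraries and 1.97 to 2.80% in arrested WT libraries. For SE-SE joints the values were 20.1 to 25.7% and 0.322 to 0.656%.

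**Figure D5:**
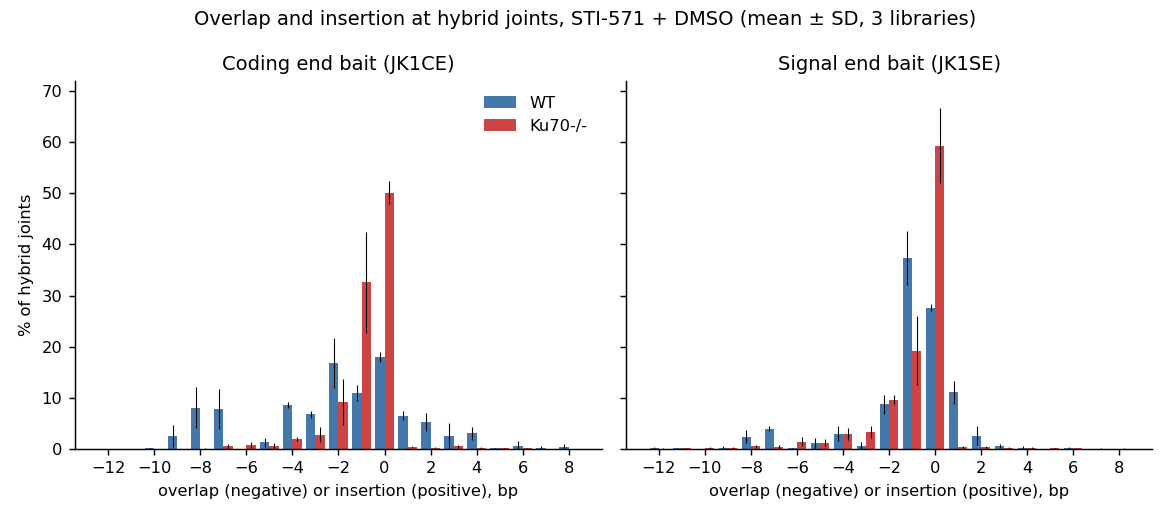
Percentage of hybrid joints by the length of overlap (negative) or insertion (positive) between bait and prey (mean ± SD of 3 DMSO-treated libraries), for the coding end bait (left) and the signal end bait (right). Ku70-/- joints gather at 0 and 1 bases of overlap, with 50.2 and 59.4% direct (55.2% for the signal end bait without replicate 1), and the WT joints of the coding end bait have a separate group at 7 to 9 bases.

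Within Ku70-/- cells, hybrid and same-kind joints differed by a few percentage points in structure. The direct share of hybrid joints differed by -0.723 percentage points from CE-CE joints (exact sign-flip permutation p = 0.082) and by -0.867 from SE-SE joints (exact sign-flip permutation p = 0.742). The differences were -0.913 without L82-G17 replicate 2 (CE-CE, exact p = 0.0391) and -2.67 without DMSO replicate 1 (SE-SE, exact p = 0.00781). With each distinct junction counted once they were 4.16 and -6.65 (exact p = 0.00391 for each), so the direction against CE-CE joints depends on how repeated reads are counted. Microhomology of more than 1 bp was 1.93 points higher than in CE-CE joints (exact sign-flip permutation p = 0.164), and 3.11 higher without DMSO replicate 1 (exact p = 0.00781). It was 2.14 points lower than in SE-SE joints (exact p = 0.00781, adjusted p = 0.0156 over 6). Microhomology over 2 bp differed less, with 9.54 to 13.9% in signal end hybrid and 10.4 to 14.1% in SE-SE joints. It was lower in hybrid joints except in DMSO replicate 2 and L67 replicate 3. Insertions were 0.960 points rarer than in CE-CE joints and 1.31 points commoner than in SE-SE joints, in all 9 libraries each (exact sign-flip permutation p = 0.00391, adjusted p = 0.0117). The insertion share of hybrid joints thus lay between those of CE-CE (2.59%) and SE-SE joints (0.881%).

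With the inhibitors, microhomology of more than 1 bp in Ku70-/- hybrid joints was 22.6% ± 1.72 under L82-G17 and 15.7% ± 7.16 under DMSO with the coding end bait (SD, n = 3, exact permutation p = 0.1). Against the other 2 DMSO libraries (20.5 and 19.0%) the L82-G17 difference was 2.79 percentage points. With the signal end bait the L82-G17 difference was 1.59 (exact permutation p = 0.3, and 0.749 to 2.53 leaving out 1 library). For L67 the differences were 4.71 (coding end, exact permutation p = 0.3, and 0.605 without DMSO replicate 1, exact p = 0.5) and 0.829 (signal end, exact permutation p = 0.6, and 0.0148 to 1.25 leaving out 1 library). Cycling Ku70-/- libraries had more microhomology in the hybrid joints of the coding end bait than any arrested Ku70-/- library, 35.0, 45.2 and 32.7%, from 176 to 256 distinct junctions each. Their CE-CE joints had 35.5, 34.7 and 33.3%, so this was not shown to be particular to hybrid joints. At the signal end bait the cycling hybrid joints had 35.7, 11.9 and 37.7%, with the value of replicate 2 below every arrested Ku70-/- library of that bait.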

How the data were processed

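HTGTS-JoinT-seq libraries were sequenced as paired ends, and the authors reduced each to 500000 read pairs, aligned them to mm9 with Bowtie2, called junctions with the translocation pipeline without removing duplicates and added junctions near the bait (per the labels and the study's methods). Each line of a deposited file is a junction, given by chromosome, position and strand with the bait and prey alignments and the read. They hold no score or count column, so junctions were counted here per library. The Ku70-/- and WT lines are 1 clone each.

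The members and the lists were chosen with earlier results of these data known. Sites, members, hybrid and same-kind joints were found in Python 3.11.15 (pandas 2.3.3, numpy 2.4.6) and annotated from the GENCODE vM1 genes of NCBIM37 (mm9). Shares are percentages of hybrid plus same-kind junctions. Bases lost run from the site to the prey's first base, for joints within 100 bp. Overlaps and insertions come from the bait and prey positions in the read, up to 20 bp. Differences were tested by exact permutation over libraries, two-sided, with Benjamini-Hochberg adjustment within each family. Comparisons with WT libraries of the signal end bait were not tested, since the arrested ones set the sites. Sites were tested with limma 3.58.1 in R 4.3.3 (trend, pseudocount 0.5, at least 50 junctions on average), which was tested on simulated data. For the genotype fit the simulated counts used Ku70-/- hybrid shares in both genotypes, so the low WT counts were not covered. Named sites are the 4 DEL and 4 INV sites with most hybrid joints in each bait, the 3 highest and 3 lowest shares among sites with at least 100 junctions, and per limma contrast up to 3 rises and 3 falls past the threshold with no overlap between groups. Replicates carry no numbers in the labels and were numbered in accession order. Depth was 8294 to 385847 junctions per library. Alternatives were a 100-bp window, sites with 3000 junctions, CAC sites, counting each distinct junction once, resection windows of 5 and 20 bp, microhomology over 2 bp, a pseudocount of 1, no filter and leaving out each library. Leaving out overlaps of 7 or more bases across the break, and Ku70-/- DMSO replicate 1 of both baits together, were chosen after seeing the data.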

Additional observations from a re-analysis of the deposited data

Results flagged for a closer look

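In Ku70-/- cells and the signal end bait, DEL sites had the higher hybrid share in each of the 3 cycling libraries and INV sites in each of the 9 arrested libraries. The DEL minus INV difference was 36.3 ± 6.29 percentage points in cycling cells and -37.6 ± 9.43 with DMSO, -31.8 ± 0.955 with L67 and -27.0 ± 0.699 with L82-G17 (SD, n = 3). The cycling value exceeded these by 73.9, 68.1 and 63.3 percentage points (exact permutation test over 6 libraries, two-sided p = 0.1 for each, the smallest possible). The DMSO libraries other than replicate 1 had differences of -32.3 and -32.0. The cycling libraries had 177 to 440 distinct site junctions.

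In WT cells and the signal end bait the cycling libraries also had the higher share at DEL sites, and the L67 libraries at INV sites, a difference of 3.19 percentage points that was not tested. The DMSO and L82-G17 libraries did not all share that direction, with DEL minus INV differences of 0.0336 in DMSO replicate 3 and 0.0722 in L82-G17 replicate 3. The cycling values rest on 5 to 12 distinct hybrid junctions per library.

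The effect of L82-G17 on the log2 ratio of hybrid to CE-CE joints differed by -1.60 (log2, Ku70-/- minus WT) with the coding end bait (exact permutation within genotype, two-sided p = 0.005, 0.01 adjusted over 2). Leaving out 1 library gave -1.68 to -1.44. The WT side rests on 124 to 149 distinct hybrid junctions per library with DMSO and 98 to 162 with L82-G17.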

How the results depend on the processing

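No paired analysis was possible because the labels give no replicate numbers that would pair libraries between groups. The sign-flip tests pair classes of joints within each library. Of 94 recomputed values other than those leaving out 1 library, 73 kept their direction and, where tested, their side of the threshold, or moved by less than 1 SD where no test was made. Counting each distinct junction once turned the direction of the WT coding end difference between DMSO and cycling cells (0.0926 percentage points), of L67 against DMSO in Ku70-/- cells with the coding end bait (0.919), of coding preys within 10 bp in hybrid against CE-CE joints (3.14), of the direct share of hybrid against CE-CE joints (4.16) and of microhomology with L67 and the signal end bait (-1.99). It brought past the threshold the direct share of hybrid against SE-SE joints (-6.65) and microhomology in hybrid against CE-CE joints (3.43). Of the comparisons with WT libraries of the signal end bait, which have no test, it gave differences in hybrid share of 11.96 (DMSO minus cycling), -0.609 and -3.38 percentage points (L67 and L82-G17 minus DMSO) in WT cells, and between genotypes -8.45 for microhomology, 18.9 for the direct share and -61.0 for hybrid joints within 10 bp. In these libraries the count of distinct SE-SE junctions, on which the hybrid shares rest, is saturated. With all reads, the microhomology difference between genotypes was 5.93 with overlaps across the break left out, and that of joints within 10 bp became -62.3 and -37.4 with windows of 5 and 20 bp. Counting each junction once gave 69 sites called of 69 tested between genotypes and, for L82-G17, 17 of 69 (coding end) and 6 of 67 (signal end). The filter on site junctions left out gave 1 call for L82-G17 with the signal end bait. The 20-bp window gave -6.78 for coding preys in hybrid against CE-CE joints and brought this difference past the threshold. The cause of these changes was not tested.
Leaving out 1 library at a time, or DMSO replicate 1 of both baits, 429 of 446 values kept their call. The values that changed ranged from -1.85 to 2.10 (L67 against DMSO, Ku70-/-, coding end), -0.159 to 0.125 (L67, WT, signal end), -0.167 to 0.0373 (log2, difference of the L82-G17 effects, signal end), -3.08 to -1.26 (coding preys within 10 bp), -0.913 to -0.516 and -2.67 to -0.313 (direct share, coding and signal end), 1.49 to 3.11 (microhomology, coding end), and 0 to 1 and 0 to 3 sites called (L67 with the coding end, L82-G17 with the signal end). The exact permutation test of 3 against 3 libraries cannot reach a p under 0.1, and WT cycling hybrid shares are limited by 5 to 24 distinct junctions a library.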
